A study of Mus musculus with 14 samples.

Results

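The genes described here are the core of the integrated stress response, with the transcription factor Atf4 at its centre: Atf4, Atf5, Ddit3, Trib3, Sesn2, Asns, Vldlr, Gdf15, Fgf21 and Ppp1r15a. A gene was included where a probe set of the expression table carried its symbol, and where several did, the brightest one on average over the 14 arrays stood for the gene. Of the 10 genes listed, 9 were measured, out of 19505 distinct gene symbols on the array. Gdf15 matched no probe set, and Ddit3 matched 2. The arrays measured RNA from mouse hematopoietic progenitor cells (HPCs), which are bone marrow cells without lineage markers, separated, kept in culture and infected with a retrovirus. The donor mice carried Polg, which encodes the catalytic part of the mitochondrial DNA polymerase, as wt/wt (WT), wt/mut (Het) or mut/mut (Hom). The vector MSCV-IRES-YFP served as the control (Ctrl). The other vector, MSCV-NMyc-IRES-YFP (NMyc), adds the transcription factor N-Myc. All groups were thus cultured, transduced and YFP-marked, on plates coated with retronectin. WT-Ctrl and Het-Ctrl had 3 arrays each, Hom-Ctrl had 2, and each NMyc group had 2. The labels name neither the Polg mutation, the age of the mice, a sort for YFP, nor whether animals were pooled. They call the arrays biological replicates, and p-values reflect how far these samples scatter.

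In the integrated stress response, kinases that sense heme shortage or mitochondrial damage, double-stranded RNA, endoplasmic reticulum stress or amino acid shortage phosphorylate the translation factor eIF2. General protein synthesis then slows while the Atf4 mRNA is translated more, and the ATF4 protein pairs with C/EBP and other bZIP proteins to raise genes of amino acid supply, redox balance and, under long stress, cell death. Arrays read mRNA, and so do not see the translational step that sets much of ATF4's activity. Failing mitochondrial DNA maintenance is a known trigger of this response in several tissues.

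ATF4 is known to act through C/EBP-ATF response elements, and the letters of their shared core, TGATGNAA, were searched on both strands of RefSeq promoter windows (assembly GRCm38.p6, 250 bases before to 50 after each gene's start). All 10 genes had at least 1 window, 13 windows in all. The core stood in 4 of these 13 windows, 1 each of Asns, Trib3, Vldlr and Fgf21, and in 3.97% of the 32851 windows of all genes. A match is a run of letters, not a shown binding site. The 4 matches are printed below because the members that carry them did not move alike. Each is on the gene's own strand, 30 bases long, with the core in capitals.
Asns (chr6:7693214-7693243, minus strand, core 23 to 16 bases before the start): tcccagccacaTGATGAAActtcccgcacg
Trib3 (chr2:152344028-152344057, minus strand, core reversed, 15 to 22 bases after the start): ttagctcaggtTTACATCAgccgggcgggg
Vldlr (chr19:27216809-27216838, plus strand, core reversed, in the second of its windows, 200 to 193 bases before the start): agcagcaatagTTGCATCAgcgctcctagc
Fgf21 (chr7:45615611-45615640, minus strand, core reversed, 139 to 132 bases before the start): agacccccccaTTGCATCAtccgtccaggc

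Asns is the textbook case of amino acid control of a promoter, in which the core lies next to a second element, GTTACA, that nutrient-deprivation studies defined. GTTACA stood in 8.25% of all windows. In Asns it began 3 bases before the start, and the first Vldlr window held it 210 to 205 bases before the start. The bases upstream of the Asns start (chr6:7693210-7693459, minus strand) are shown so that the core can be seen in its place, in capitals near the end of the run.
Asns upstream: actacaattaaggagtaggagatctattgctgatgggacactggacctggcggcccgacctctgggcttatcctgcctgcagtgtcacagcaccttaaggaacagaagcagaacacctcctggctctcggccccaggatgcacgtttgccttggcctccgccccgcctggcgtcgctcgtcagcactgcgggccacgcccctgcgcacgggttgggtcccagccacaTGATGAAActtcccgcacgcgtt

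Values are log2, and the array medians lay between 6.294 and 6.378. Mycn, read as a check of the vector labels, was 7.43 to 7.76 on 7 of the 8 Ctrl arrays and 12.15 to 12.38 on the NMyc arrays. Hom-Ctrl replicate 1 stood apart at 9.77, against 7.61 for Hom-Ctrl replicate 2, so the called differences that use Hom-Ctrl are also given without replicate 1. Sample codes in the labels form 3 runs, and Hom-Ctrl has no array in the third. Of 8 progenitor markers, 7 exceeded the negative control median on every array of 5 groups and 8 on every Hom-NMyc array, but Flt3 did not exceed it on any Hom-Ctrl or WT-NMyc array. A difference was called where limma's p-value, adjusted by Benjamini-Hochberg over 22206 probe sets, was under 0.05.

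With N-Myc, the stress response core split, though the call of its only higher gene, Asns, was lost in 11 of 24 alternative fits. Ddit3, Vldlr, Trib3, Ppp1r15a and Sesn2 were lower over the 3 genotypes together, Asns was higher, and Atf4, Atf5 and Fgf21 did not pass the test. That is 1 of 9 higher and 5 of 9 lower, where 33.6% of all probe sets were called, 18.2% higher and 15.5% lower. The median change of the 9 genes was -0.70, against -0.02 over all probe sets. The average change was -2.33 ± 0.13 (SE; limma's adjusted p = 3.89e-09) for Ddit3, a 5.02-fold difference, and -1.23 ± 0.08 (1.33e-08) for Vldlr. Without Hom-Ctrl replicate 1 these were -2.27 and -1.25, the count of lower genes was again 5, and Asns was no longer called, where 31.3% of all sets were called.

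**Figure D1:**
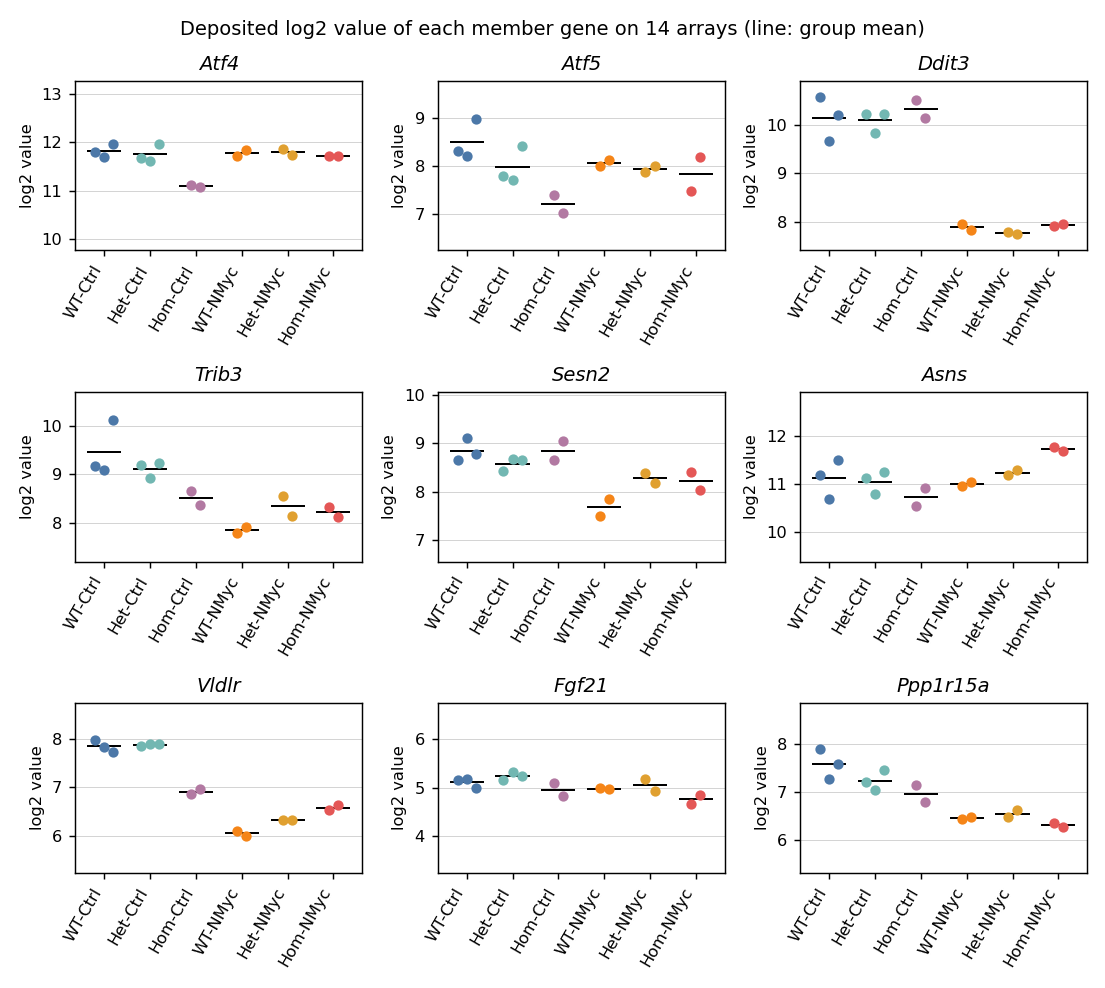
Each panel plots the deposited log2 value of 1 gene (y axis) on every array, by group (x axis), with a line at each group mean and the same axis length in every panel. Ddit3 lies at 9.66 to 10.57 with Ctrl and 7.74 to 7.96 with NMyc, while the 2 Hom-Ctrl arrays are the lowest of all for Atf4 (11.11 and 11.07) and Atf5 (7.40 and 7.03).

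Within genotypes, the same comparison is NMyc minus Ctrl. In WT cells 5 genes fell and 0 rose (of all probe sets 19.1% were called, 9.05% lower and 10.1% higher). In Het cells 4 fell and 0 rose (of all sets 19.1%, with 8.0% lower and 11.1% higher), but only 2 fell without Het-NMyc replicate 1, without Het-NMyc replicate 2 or without Het-Ctrl replicate 3. In Hom cells 3 fell and 2 rose (of all sets 17.7%, with 7.01% lower and 10.7% higher). Without Hom-Ctrl replicate 1 that became 2 lower and 0 higher, where 10.8% of all sets were called. The lower genes in Hom were 1 without Het-NMyc replicate 1, Het-NMyc replicate 2 or Hom-NMyc replicate 2.

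**Figure D2:**
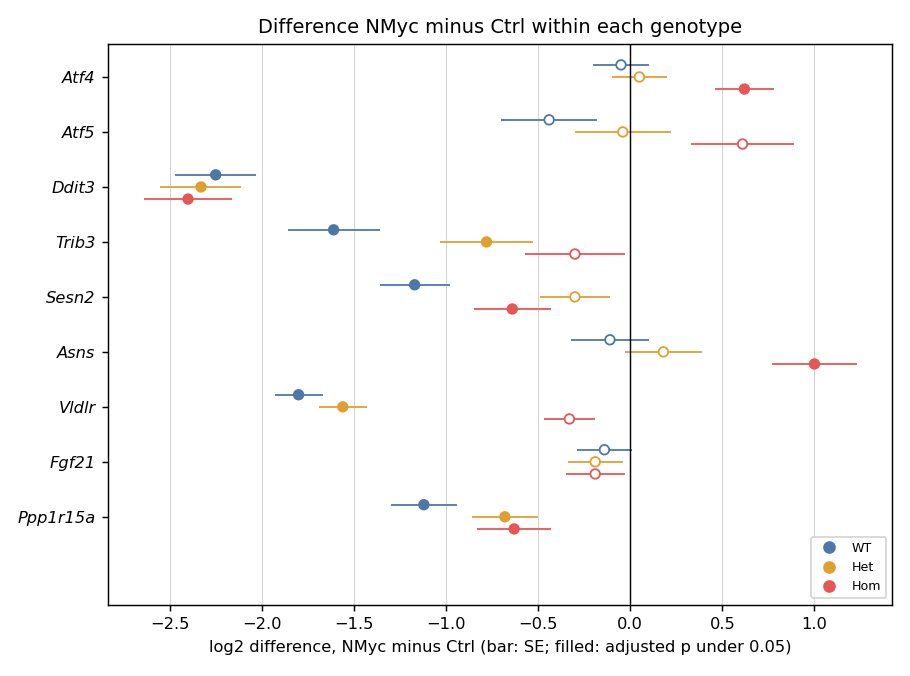
The plot gives the log2 difference NMyc minus Ctrl (x axis, bar: SE) of each gene (y axis) in WT, Het and Hom cells, with filled points where the adjusted p was under 0.05. Ddit3 sits at -2.25, -2.33 and -2.40 in the 3 genotypes, while Vldlr runs from -1.80 in WT to -0.33 in Hom and Asns from -0.11 to 1.00.

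Atf4 itself was abundant and nearly level in 5 of the 6 groups. It read 11.80, 11.70 and 11.96 in WT-Ctrl, 11.68, 11.61 and 11.96 in Het-Ctrl, and 11.11 and 11.07 in Hom-Ctrl. With N-Myc it read 11.71 and 11.83 in WT, 11.87 and 11.73 in Het, and 11.71 and 11.72 in Hom. Both Hom-Ctrl arrays lay below every other array, and the others overlapped, except that Hom-NMyc lay just below Het-NMyc. The genotype difference with Ctrl, Hom minus WT, was -0.73 ± 0.15 (SE; limma's adjusted p = 0.0124), and Hom minus Het was -0.66 ± 0.15 (0.0281). Within the first and second runs of sample codes, Hom minus WT was -0.68 and -0.63 and Hom minus Het was -0.57 and -0.54. The N-Myc effect in Hom was 0.62 ± 0.16 (adjusted p = 0.0129), against -0.05 ± 0.15 in WT and 0.05 ± 0.15 in Het. This rise and the genotype difference rest on the same 2 Hom-Ctrl arrays. The test of the difference between the Hom and WT effects did not pass (0.67 ± 0.22, adjusted p = 0.344; 0.69 without Hom-Ctrl replicate 1).

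The size of the Atf4 differences hardly moved when an array was left out, but the call did. Without Hom-Ctrl replicate 1, Atf4 was -0.75 for Hom minus WT (adjusted p = 0.0483), -0.69 for Hom minus Het (0.0818) and 0.65 for NMyc in Hom (0.0533). Without Hom-Ctrl replicate 2 the values were -0.71 (0.121), -0.64 (0.2) and 0.60 (0.061). Hom minus Het was -0.56 (0.114) without Het-Ctrl replicate 3. The NMyc effect in Hom was 0.62 without Hom-NMyc replicate 1 (0.0698) or 2 (0.0833). Averaged over genotypes, Atf4 changed by 0.21 (0.0824), which became 0.24 (0.0378) without Het-Ctrl replicate 3 and 0.27 (0.0186) with the replicate number as a block. That block joins Ctrl and NMyc arrays of different runs of sample codes. With the run as the block, the averaged Atf4 change was not called.

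Atf5, a bZIP factor close to ATF4 that is linked to mitochondrial protein stress, was lowest in the same group. Its values were 8.31, 8.21 and 8.98 in WT-Ctrl, 7.80, 7.72 and 8.42 in Het-Ctrl, and 7.40 and 7.03 in Hom-Ctrl. With N-Myc they were 7.99 and 8.13 in WT, 7.88 and 8.0 in Het, and 7.49 and 8.18 in Hom. Both Hom-Ctrl arrays were below all others, and the NMyc groups overlapped. Hom minus WT with Ctrl was -1.28 ± 0.26 (SE; adjusted p = 0.013), a 2.43-fold difference, with -0.91 and -1.17 within the first and second runs. It was -1.47 (0.0294) without Hom-Ctrl replicate 1 and -1.10 (0.166) without Hom-Ctrl replicate 2. Het-Ctrl lay between, at 7.98 ± 0.38 (SD, n = 3), and differed from WT-Ctrl by -0.52 ± 0.23 (unadjusted p = 0.0412, adjusted p = 0.999). Within the 3 runs, which pair these arrays by replicate number, the differences were -0.51, -0.48 and -0.56. With the replicate number as a block it was -0.52 ± 0.17 and not called (adjusted p = 0.938). N-Myc effects on Atf5 were -0.44, -0.04 and 0.61 in WT, Het and Hom, none of which passed, and 0.80 (0.18) in Hom without Hom-Ctrl replicate 1.

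Ddit3 encodes CHOP, the bZIP factor through which long stress leads to cell death, and it showed the largest N-Myc effect of the 9 genes. The values were 10.57, 9.66 and 10.20 in WT-Ctrl, 10.22, 9.84 and 10.22 in Het-Ctrl, and 10.51 and 10.15 in Hom-Ctrl. With N-Myc they dropped to 7.95 and 7.83 in WT, 7.79 and 7.74 in Het, and 7.90 and 7.96 in Hom. Ctrl and NMyc arrays did not overlap in any genotype. The WT change was -2.25 ± 0.22 (SE; adjusted p = 5.24e-06), the Het change -2.33 ± 0.22 (4.53e-06) and the Hom change -2.40 ± 0.24 (1.8e-05). Leaving out Hom-Ctrl replicate 1 gave -2.22 (0.00051) in Hom. A second Ddit3 probe set moved the same way, by -1.67 ± 0.21, -1.55 ± 0.21 and -2.04 ± 0.23. The effect in Hom minus that in WT was -0.15 ± 0.32 (95% confidence interval -0.83 to 0.53), and 0.03 ± 0.36 without Hom-Ctrl replicate 1. Genotype left Ddit3 without a called difference: Hom minus WT with Ctrl was 0.19 ± 0.22 (interval -0.27 to 0.65), with -0.06 and 0.49 in the first and second runs and 0.00 without Hom-Ctrl replicate 1.

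Trib3 encodes a pseudokinase that is induced by ATF4 and CHOP and restrains ATF4 in turn. It read 9.16, 9.09 and 10.11 in WT-Ctrl, 9.19, 8.92 and 9.24 in Het-Ctrl, and 8.66 and 8.37 in Hom-Ctrl. With N-Myc it read 7.78 and 7.91 in WT, 8.54 and 8.14 in Het, and 8.32 and 8.11 in Hom. Arrays separated by vector within each genotype, in Hom only narrowly (8.37 against 8.32), and the Hom-Ctrl arrays were below both other Ctrl groups. WT-Ctrl replicate 3 was well above the other WT-Ctrl arrays. The N-Myc change of Trib3 was -1.61 ± 0.25 in WT (SE; adjusted p = 0.000261) and -0.78 ± 0.25 in Het (0.0379), and that in Hom was -0.30 ± 0.27 (0.527), or -0.15 (0.857) without Hom-Ctrl replicate 1. Within the second run the WT and Het differences were -1.31 and -0.38, and within the third they were -2.20 and -1.10.

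Some Trib3 calls were fragile. In Het the adjusted p was 0.0918 without Het-Ctrl replicate 1 (-0.74), 0.102 without Het-Ctrl replicate 3 (-0.71), 0.0603 without Het-NMyc replicate 1 (-0.98) and 0.302 without Het-NMyc replicate 2 (-0.58), and 0.0511 (-0.58) with the replicate number as a block. With the run of sample codes as a block, the Het call held. Hom minus WT with Ctrl was -0.94 ± 0.25 (adjusted p = 0.047), larger than within the first and second runs (-0.50 and -0.72). That call was lost when any of 12 single arrays was left out, with adjusted p from 0.0538 (Het-Ctrl replicate 2) to 0.294 (Hom-Ctrl replicate 2). The difference was -0.61 without WT-Ctrl replicate 3 and -1.08 (adjusted p = 0.0899) without Hom-Ctrl replicate 1. With the replicate number as a block it was -0.74 (0.0617), and the call was also lost with the run of sample codes as a block. The effects in Hom and WT differed by 1.31 ± 0.37 (adjusted p = 0.246), or 1.45 (0.281) without Hom-Ctrl replicate 1.

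Ppp1r15a encodes GADD34, the stress-induced subunit that brings a phosphatase to eIF2 and so ends the response. Its values were 7.89, 7.27 and 7.59 in WT-Ctrl, 7.21, 7.05 and 7.45 in Het-Ctrl, and 7.14 and 6.79 in Hom-Ctrl. With N-Myc they were 6.45 and 6.48 in WT, 6.48 and 6.63 in Het, and 6.37 and 6.28 in Hom. Every NMyc array lay below every Ctrl array. The WT change was -1.12 ± 0.18 (SE; adjusted p = 0.000435), the Het change -0.68 ± 0.18 (0.0151) and the Hom change -0.63 ± 0.20 (0.0398). The Het call was lost without Het-NMyc replicate 1 (-0.61, 0.133), Het-NMyc replicate 2 (-0.75, 0.0581) or Het-Ctrl replicate 3 (-0.57, 0.0603). The Hom call was lost without Hom-Ctrl replicate 1 (-0.46, 0.278), Hom-NMyc replicate 1 (-0.68, 0.116) or Hom-NMyc replicate 2 (-0.59, 0.191), and without either array of WT-NMyc (-0.63, 0.0531) or Het-NMyc (-0.63, 0.0512). With the run of sample codes as a block, the Hom call was also lost. Hom minus WT with Ctrl was -0.62 ± 0.18 (0.0771), with -0.75 and -0.48 in the first and second runs. This genotype difference was called with the run as the block. It was -0.80 (0.0789) without Hom-Ctrl replicate 1 and -0.78 (0.0293) without WT-Ctrl replicate 2.

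Sesn2 encodes sestrin 2, which dampens mTORC1 and oxidative stress and is induced by both ATF4 and p53. It read 8.65, 9.12 and 8.78 in WT-Ctrl, 8.43, 8.67 and 8.65 in Het-Ctrl, and 8.65 and 9.05 in Hom-Ctrl. With N-Myc it read 7.50 and 7.86 in WT, 8.38 and 8.18 in Het, and 8.40 and 8.03 in Hom. The WT-NMyc arrays were the lowest, and the highest NMyc array came within 0.03 of the lowest Ctrl array. N-Myc changed Sesn2 by -1.17 ± 0.19 in WT (SE; adjusted p = 0.000367), -0.30 ± 0.19 in Het (0.331) and -0.64 ± 0.21 in Hom (0.0436). The effect in Het minus that in WT was 0.87 ± 0.27 (adjusted p = 1; unadjusted p under 0.05), so a genotype difference was not called.

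The Hom call for Sesn2 was lost without Hom-Ctrl replicate 2 (-0.44, adjusted p = 0.267), Hom-NMyc replicate 2 (-0.45, 0.326), Het-Ctrl replicate 2 (-0.64, 0.0529), Het-Ctrl replicate 3 (-0.64, 0.0536) or either Het-NMyc array (-0.64, 0.0541). It was -0.84 (0.041) without Hom-Ctrl replicate 1. In the Ctrl groups, Hom minus WT was 0.00 ± 0.19 (interval -0.40 to 0.40), with 0.00 and -0.08 in the first and second runs and 0.20 ± 0.23 without Hom-Ctrl replicate 1. Other p53 targets did differ there. Of 18 measured, 9 were higher in Hom-Ctrl than WT-Ctrl and 0 lower, where 2.03% of all sets were higher. Fewer were called when either Hom-Ctrl array was left out. The receptor gene Eda2r was at 2.15 ± 0.23 (adjusted p = 0.000321) and Cdkn1a, the cell-cycle inhibitor p21, at 1.33 ± 0.18 (0.00166). They were 2.15 (0.00252) and 1.52 (0.00362) without Hom-Ctrl replicate 1. The summed log2 level of that list was 157.2 to 157.7 in Hom-Ctrl and 140.3 to 147.2 in WT-Ctrl, and its part in the Sesn2 values was not tested.

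Asns encodes asparagine synthetase, which makes asparagine from aspartate and glutamine. It was 11.18, 10.69 and 11.50 in WT-Ctrl, 11.12, 10.80 and 11.24 in Het-Ctrl, and 10.54 and 10.92 in Hom-Ctrl. With N-Myc it was 10.97 and 11.05 in WT, 11.18 and 11.29 in Het, and 11.76 and 11.69 in Hom. The 2 Hom-NMyc arrays were the highest of all 14, the lowest was Hom-Ctrl replicate 1, and the WT and Het groups overlapped across vectors. In Hom cells N-Myc raised Asns by 1.00 ± 0.23 (SE; adjusted p = 0.00624), a 2.00-fold difference, and by 0.84 within the second run. It was 0.81 (adjusted p = 0.0783) without Hom-Ctrl replicate 1. The changes in WT and Het were -0.11 ± 0.21 (0.802) and 0.18 ± 0.21 (0.643). The difference between the Hom and WT effects was 1.11 ± 0.31 (adjusted p = 0.243) and was not called, with 0.92 (0.485) without that array. Hom minus WT with Ctrl was -0.40 ± 0.21 (0.364), and it had opposite signs in the first and second runs (-0.64 and 0.23), with -0.21 (0.775) without that array.

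Averaged over genotypes the Asns rise was 0.36 ± 0.12 (adjusted p = 0.0359). Within runs of sample codes, the WT difference had opposite signs, 0.29 in run 2 and -0.45 in run 3. The Het difference was 0.38 in run 2 and 0.05 in run 3. The averaged call was lost in 11 of 24 alternative fits. These included the run of sample codes as a block, runs 2 and 3 alone, and only AFFX control sets left out. That call was lost without Hom-Ctrl replicate 1 (0.29, 0.115), without Het-Ctrl replicate 2 (0.31, 0.0691) and without any 1 of the 6 NMyc arrays (0.34 to 0.38, adjusted p from 0.057 to 0.0856).

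Vldlr encodes the very low density lipoprotein receptor, a lipid uptake receptor that ATF4 raises under stress. Its arrays were the least scattered of the called genes, with a pooled SD of 0.08. The values were 7.98, 7.84 and 7.74 in WT-Ctrl, 7.86, 7.89 and 7.90 in Het-Ctrl, and 6.86 and 6.96 in Hom-Ctrl. With N-Myc they were 6.10 and 6.0 in WT, 6.33 and 6.32 in Het, and 6.53 and 6.64 in Hom. WT-Ctrl and Het-Ctrl overlapped, Hom-Ctrl lay below both, and the 3 NMyc groups lay lower still, in the order WT, Het, Hom and without overlap. The N-Myc change was -1.80 ± 0.13 in WT (SE; adjusted p = 4.62e-07), -1.56 ± 0.13 in Het (1.93e-06) and -0.33 ± 0.14 in Hom (0.14), where it was -0.38 (0.218) without Hom-Ctrl replicate 1. Hom minus WT with Ctrl was -0.94 ± 0.13 (0.00166), with -1.12 and -0.88 in the first and second runs, and -0.89 (0.0125) without Hom-Ctrl replicate 1. Hom minus Het with Ctrl was -0.97 ± 0.13 (0.00225), with -1.0 and -0.93 in the first and second runs and -0.92 (0.0147) without that array.

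Vldlr was the 1 gene of the 9 whose N-Myc effect differed by genotype in a test of the difference itself. The effect in Hom minus that in WT was 1.48 ± 0.19 (SE; limma's adjusted p = 0.0131), where 0.0811% of all probe sets were called. It was 1.31 within the second run and 1.43 (0.0313) without Hom-Ctrl replicate 1. It kept its size but not its call without either WT-NMyc array (1.53, 0.0853; 1.42, 0.0986) or either Hom-NMyc array (1.53, 0.0564; 1.42, 0.0981). The effect in Hom minus that in Het was 1.23 ± 0.19 (0.0462), where 0.0315% were called, and the adjusted p ranged up to 0.441 (without Hom-NMyc replicate 2) when single arrays were left out. Leaving out 13 of the 14 arrays in turn lost it, all but WT-Ctrl replicate 3, with values of 1.17 to 1.28. It was 1.18 (0.121) without Hom-Ctrl replicate 1. With the replicate number as a block it was 1.25 (0.0658), and the call was also lost with the run of sample codes as a block. Among the NMyc groups, Hom minus WT was 0.53 ± 0.14 (adjusted p = 0.354), so the order seen there was not called.

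The remaining 2 genes encode secreted stress hormones. Fgf21, a metabolic hormone that mitochondrial stress raises in muscle and liver, read 4.67 to 5.32 over the 14 arrays. That is the 52.2 to 68.1 percentile of the negative control sets, so its probe set was hardly above background, and no comparison called it. Gdf15, the other hormone, was not analysed here.

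Between genotypes under the Ctrl vector, Hom cells had less Atf4, Atf5, Trib3 and Vldlr mRNA than WT cells, which is 4 of 9 genes lower and 0 higher where 3.91% of all probe sets were called, 1.88% lower and 2.03% higher. Without Hom-Ctrl replicate 1 there were 3, where 2.73% of all sets were called. Without Hom-Ctrl replicate 2 there was 1, Vldlr, where 0.446% were. Hom minus Het called 2 lower, Atf4 and Vldlr, where 2.40% of all sets were called, 1.06% lower and 1.34% higher, and both comparisons share the Hom-Ctrl arrays. Het minus WT with Ctrl called 0 of the 9 genes and 0 probe sets (0%) with limma. At an unadjusted p under 0.05 it had 935 probe sets (4.21% of all), Atf5 among them.

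**Figure D3:**
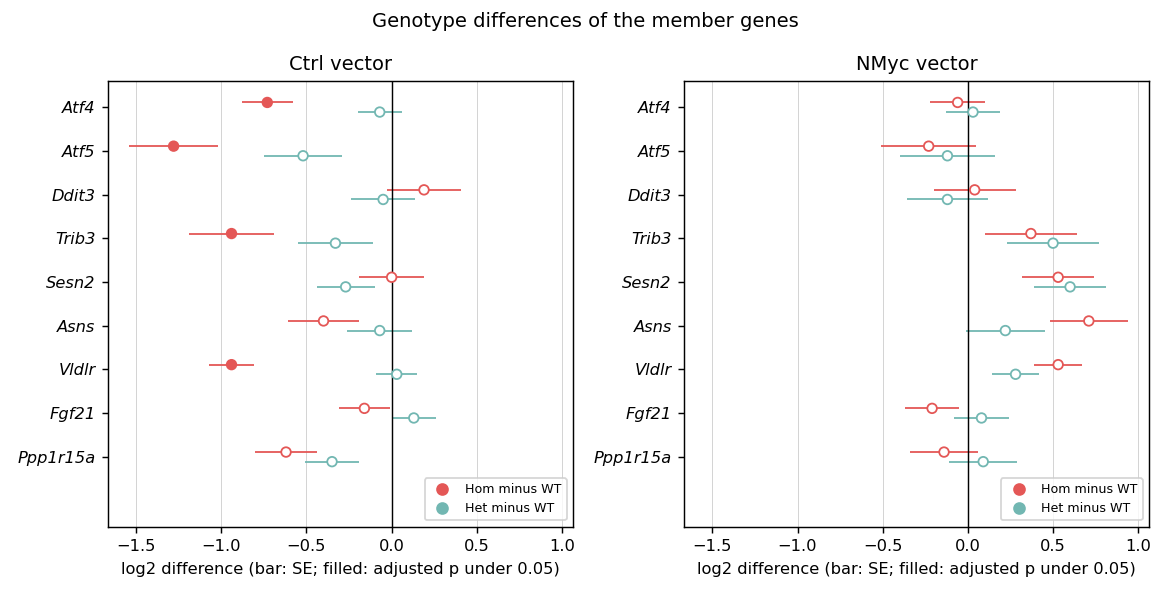
The panels give the log2 genotype difference (x axis, bar: SE) of each gene (y axis) for Hom minus WT and Het minus WT, with the Ctrl vector on the left and the NMyc vector on the right, filled where the adjusted p was under 0.05. With Ctrl, Hom minus WT is filled for Atf4 (-0.73), Atf5 (-1.28), Trib3 (-0.94) and Vldlr (-0.94), and no point is filled with NMyc.

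Under N-Myc no genotype comparison called any of the 9 genes or any probe set (0%) with limma. With array weights Hom minus WT called 93 probe sets, none of them a member, and each other alternative called 0 or 1 in these comparisons. At an unadjusted p under 0.05, Hom minus WT had 1873 probe sets (8.43% of all), among them Sesn2 (0.53 ± 0.21), Asns (0.71 ± 0.23) and Vldlr (0.53 ± 0.14). Het minus WT had 576 (2.59%), among them Sesn2 (0.60 ± 0.21), and Hom minus Het had 1093 (4.92%), among them Asns (0.49 ± 0.23). The N-Myc effect in Het minus that in WT called 0 probe sets, with 730 (3.29%) at an unadjusted p under 0.05, Trib3 and Sesn2 among them. With 2 arrays a group, these intervals were wide: that of Asns in Hom minus WT ran from 0.22 to 1.20.

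Some genes deviated the same way in WT-Ctrl and Het-Ctrl within a run of sample codes, and others did not. In the third run Atf5 was 0.48 above its WT-Ctrl mean and 0.44 above its Het-Ctrl mean. Asns in the second run was -0.44 and -0.26 from these means, and Ddit3 -0.48 and -0.25. Trib3 went apart in the first run (-0.29 and 0.08), as did Ppp1r15a (0.31 and -0.03). Fgf21 and Vldlr deviated least, by at most 0.12 and 0.13.

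**Figure D4:**
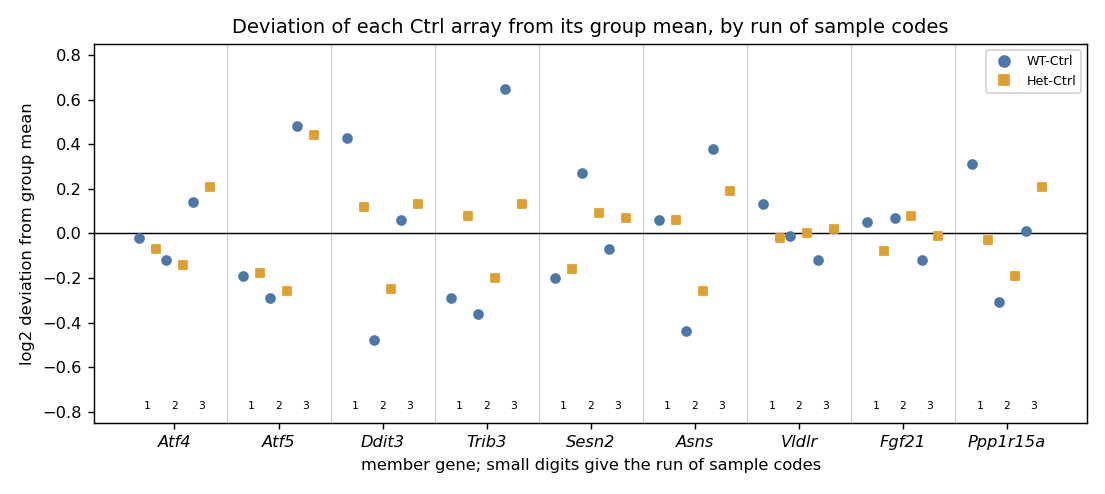
The plot shows how far each WT-Ctrl and Het-Ctrl array lay from its group mean (y axis, log2) for each gene (x axis), with small digits for the run of sample codes. In run 3 both groups were high for Atf5 (0.48 and 0.44), and in run 2 both were low for Asns (-0.44 and -0.26).

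Upstream of Atf4, the 4 eIF2 kinases changed little. None was called within a genotype, and averaged over genotypes Eif2ak1 (the heme and mitochondrial sensor HRI) rose by 0.33 ± 0.10 (SE; adjusted p = 0.0123), Eif2ak2 (PKR) changed by -0.40 ± 0.10 (0.00411) and Eif2ak3 (PERK) by -0.29 ± 0.08 (0.00982). Leaving out Hom-Ctrl replicate 1 gave 0.29, -0.39 and -0.31, all still called. Eif2ak4 (GCN2) was not called. Of 13 genes of eIF2, its exchange factor eIF2B and the eIF2 phosphatase, 5 rose and 1 fell with N-Myc in WT (10.1% and 9.05% of all sets) and 5 rose in Hom (10.7% of all sets), led by the eIF2B subunits Eif2b3 (1.51 ± 0.19 and 1.34 ± 0.21) and Eif2b1 (1.18 ± 0.17 and 1.35 ± 0.18). In Hom without Hom-Ctrl replicate 1 they were at 1.35 and 1.12. Their count in WT was 3 without WT-NMyc replicate 2, and in Hom 3 when Hom-Ctrl replicate 1 was left out and 2 when Hom-NMyc replicate 2 was. With Ctrl, 0 of these 13 and 0 of the 8 genes of the mitochondrial relay to the kinases were called between Hom and WT, where 3.91% of all sets were. Without Hom-Ctrl replicate 1, the relay gene Yme1l1 was at 0.89 in that comparison. With N-Myc, 3 of the 8 relay genes rose in WT (10.1% of all sets), among them the prohibitin Phb (1.60 ± 0.15). In Hom 4 rose (10.7% of all sets), and 2 without Hom-Ctrl replicate 1, Hom-NMyc replicate 1 or Hom-NMyc replicate 2.

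Among 22 bZIP partners and relatives of ATF4, 12 fell and 0 rose with N-Myc in WT, where 9.05% of all sets fell (6 without WT-NMyc replicate 1), with a median of -0.63 against 0.00 over all sets. The AP-1 factors Jun (-1.98 ± 0.23) and Fos (-1.82 ± 0.31) led them. In Hom 8 fell (7.01% of all sets) and 1 rose, and 3 to 5 fell when either Hom-Ctrl or either Hom-NMyc array was left out. Of 19 ATF4 targets in stress and feedback, 11 fell and 0 rose in WT, against the same 9.05% (7 without WT-NMyc replicate 1), with a median of -0.66, led by the stress regulator Nupr1 (-2.27 ± 0.34) and the growth arrest gene Gadd45a (-1.49 ± 0.18). In Hom 6 fell, against 7.01%, and 1 rose, and 3 fell without Hom-Ctrl replicate 1, Hom-NMyc replicate 1 or Hom-NMyc replicate 2. Some genes, such as Atf3 and Jdp2, stand in both lists.

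Called ATF4 targets in amino acid supply were mostly higher with N-Myc. Of 24 targets in amino acid and one-carbon supply, 8 rose and 1 fell with N-Myc in WT (median 0.02), 11 rose and 0 fell in Het (median 0.39), and 17 rose and 0 fell in Hom (median 0.83). Of all sets 10.1%, 11.1% and 10.7% rose. In WT the other 15 did not pass the test. The Hom rises were led by cystathionine gamma-lyase Cth (2.08 ± 0.26) and the mitochondrial serine enzyme Shmt2 (2.00 ± 0.31), which were 2.07 and 1.93 without Hom-Ctrl replicate 1. The counts were 5 in WT without WT-NMyc replicate 2, 5 to 7 in Het without Het-Ctrl replicate 1 or either Het-NMyc array, and in Hom 13 when Hom-Ctrl replicate 1 was left out, 10 without Hom-NMyc replicate 1 and 11 without Hom-NMyc replicate 2. In the test of the Hom effect minus the WT effect, 2 of the 24 passed, Cth (2.44 ± 0.36, adjusted p = 0.0147) and the glutathione-degrading enzyme Chac1 (1.82 ± 0.24, 0.0131), with 2.43 (0.0365) and 1.80 (0.0313) without Hom-Ctrl replicate 1. Of all sets 0.0811% passed it. Of 12 tRNA synthetase and tRNA export genes, 9 rose in Hom, 6 in Het and 2 in WT, and 0 fell. The 2 in WT are a share near the 10.1% of all sets. Leaving out Hom-Ctrl replicate 1, Hom-NMyc replicate 1 or Hom-NMyc replicate 2 left 5 in Hom. In Het, 3 or fewer remained called without Het-Ctrl replicate 1, Het-Ctrl replicate 2 or either Het-NMyc array.

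**Figure D5:**
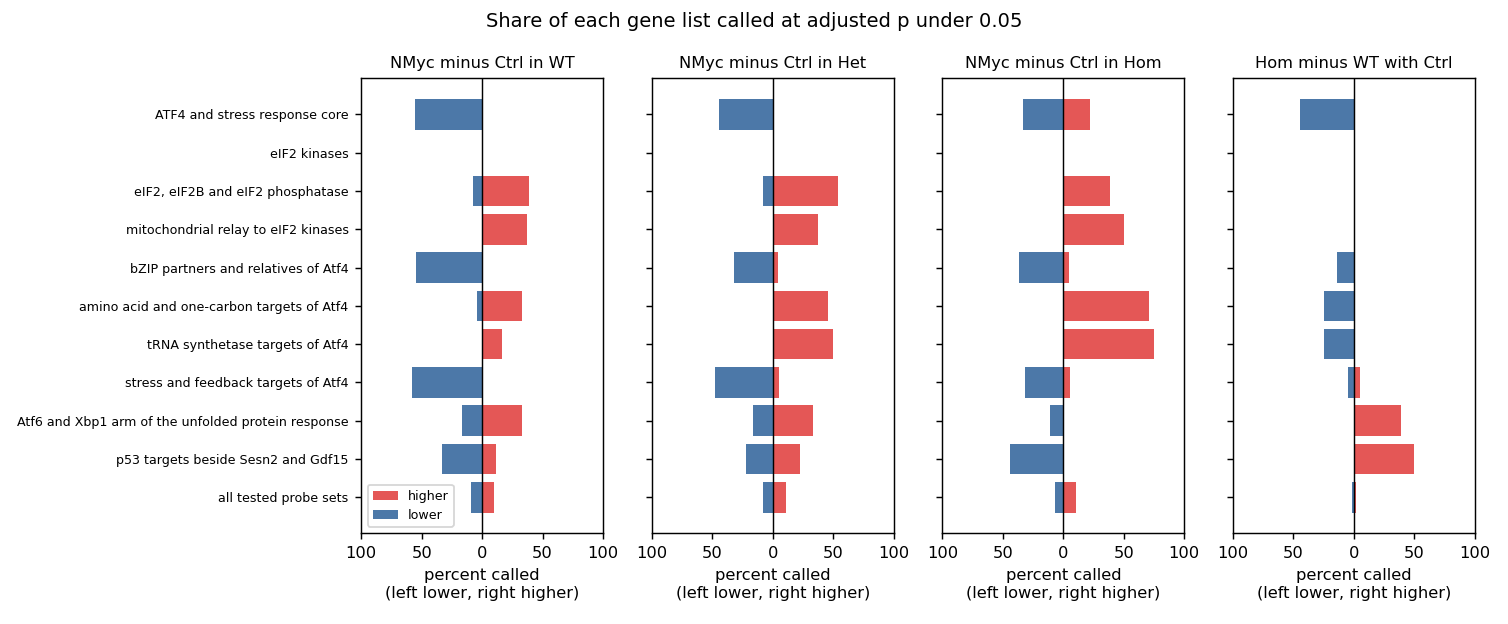
Bars give the percent of each gene list (y axis) called higher (right) or lower (left) in 4 comparisons, with all 22206 tested probe sets in the lowest row of bars. The stress and feedback targets lie to the left in the 3 NMyc panels, while the amino acid targets go from 8 of 24 higher in WT to 17 of 24 in Hom and to 6 of 24 lower in Hom minus WT with Ctrl.

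With the Ctrl vector, where 1.88% of all sets were lower in Hom than WT and 2.03% higher, 6 of the 24 amino acid targets were lower and 0 higher, with Chac1 (-1.20 ± 0.17) and Cth (-1.20 ± 0.24) in front. Without Hom-Ctrl replicate 1 these were -1.18 (adjusted p = 0.0107) and -1.19 (0.0614). The count was 2 without Hom-Ctrl replicate 1 and 1 without Hom-Ctrl replicate 2. Of the 12 tRNA genes 3 were lower, Cars (-0.77 ± 0.14, and -0.83 without Hom-Ctrl replicate 1) first among them, and the count was 0 without Hom-Ctrl replicate 2 and 6 without WT-Ctrl replicate 2. The Atf6 and Xbp1 arm of the unfolded protein response, which works beside ATF4 in the endoplasmic reticulum, had 7 of 18 higher and 0 lower, with Creld2 (1.05 ± 0.24) and Sdf2l1 (0.97 ± 0.23) in front, at 1.21 (0.046) and 1.13 (0.0576) without Hom-Ctrl replicate 1. That count was 4 without Hom-Ctrl replicate 1 or WT-Ctrl replicate 1, 3 without WT-Ctrl replicate 3 and 0 without Hom-Ctrl replicate 2.

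Genes whose 14 values followed a member most closely were found by the root mean square (RMS) difference of values centred on each gene's mean, as a description. For Atf4, whose own RMS about its mean was 0.26, the closest were the cysteinyl-tRNA synthetase Cars (0.07), the folate enzyme Mthfd2 (0.08) and the histone gene H2ac8 (0.08). For Vldlr (own RMS 0.74) they were Mapk13 (0.14), Abtb1 (0.18) and Lsp1 (0.20). For Ddit3 (own RMS 1.16) they were Rgs1 (0.26), Lyz2 (0.27) and Prg2 (0.30), of which Lyz2 is a macrophage and granulocyte lysozyme. For Asns (0.34) they were Dclre1a (0.15), Slc37a4 (0.15) and Mis12 (0.16).

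Many markers of mature myeloid cells and megakaryocytes fell with the same vector as Ddit3, Vldlr, Trib3, Ppp1r15a and Sesn2. Averaged over genotypes, where 15.5% of all sets were lower, 7 of 7 monocyte and macrophage markers, 7 of 7 neutrophil markers, 6 of 6 megakaryocyte markers and 7 of 8 mast cell markers were lower (6 mast cell markers without Hom-Ctrl replicate 1). The mast cell marker Ms4a2 went the other way, at 0.73 without Hom-Ctrl replicate 1. Of 8 progenitor markers 3 were lower and 0 higher, and of 5 erythroid markers 1 was higher and 0 lower. The B lymphoid list had 1 of 7 higher and 1 lower, the T and NK list 1 of 7 lower, and the stromal and endothelial list 1 of 8 lower. The monocyte and macrophage sum of log2 values was 70.9 to 75.5 in WT-Ctrl, 68.2 to 73.9 in Het-Ctrl, 64.6 to 71.5 in Hom-Ctrl, and 56.9 to 57.8, 56.9 to 57.9 and 56.1 to 56.7 in the WT, Het and Hom NMyc groups. The megakaryocyte sum was 54.4 to 57.9, 53.9 to 56.7 and 54.3 to 55.2 in the Ctrl groups and 40.5 to 41.6, 39.8 to 41.9 and 40.9 to 41.6 in the NMyc groups, in the same order. The neutrophil sum was 83.8 to 85.3, 84.6 to 85.6 and 79.9 to 81.9 with Ctrl and 74.9 to 75.0, 74.7 to 75.0 and 73.8 to 75.5 with NMyc. The mast cell sum was 88.6 to 90.0, 88.4 to 90.0 and 91.4 to 93.4 with Ctrl and 82.2 to 82.3, 82.1 to 83.2 and 84.3 to 84.8 with NMyc. The progenitor sum was 81.5 to 81.8, 81.6 to 82.4 and 80.5 to 80.6 with Ctrl and 77.0 to 77.7, 78.3 to 78.8 and 78.8 to 80.1 with NMyc. The erythroid sum was higher with NMyc, at 37.8 to 37.9, 37.2 to 37.6 and 37.2 to 37.5, against 34.5 to 36.6, 35.0 to 36.8 and 35.7 to 36.2 with Ctrl. No marker of the neutrophil, monocyte, megakaryocyte and mast cell lists was below the negative control median on every array of a group. Their part in the stress response values was not tested, and in such bulk samples fewer cells of a type and less RNA per cell cannot be told apart. Between Hom-Ctrl and WT-Ctrl, 1 of the 7 monocyte and macrophage markers was called, Mrc1 (-2.81 ± 0.56, adjusted p = 0.0126; -3.71 and 0.00738 without Hom-Ctrl replicate 1), and the sums of this list overlapped. Without that array 2 of the 7 were lower. The neutrophil list had 1 of 7 lower, and the mast cell list 2 of 8 higher, where 1.88% and 2.03% of all sets were. The sums of both these lists did not overlap between Hom-Ctrl and WT-Ctrl, with neutrophil lower and mast cell higher in Hom-Ctrl. Nor did the progenitor sums, which were lower in Hom-Ctrl (80.5 to 80.6 against 81.5 to 81.8). Each of these separations rests on 2 and 3 arrays.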

How the data were processed

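RNA of 14 HPC samples was read on Affymetrix whole-transcript arrays. The deposited table gives log2 expression per probe set. The submitters' processing notes name Affymetrix Expression Console as the tool. The version, the probe summary and the between-array scaling were not given in the sources used here, and such scaling can remove a shift shared by most transcripts. The values were used as deposited. Of 28846 probe sets, 6640 control sets were left out and 22206 tested. Symbols came from the platform's annotation (19572 sets with 1 symbol, 2634 with none), checked against RefSeq.

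limma 3.58.1 in R 4.3.3 fitted 6 group means to all 14 arrays (lmFit, eBayes; 8 residual and 7.3 prior degrees of freedom). It gave 13 two-sided comparisons, each adjusted by Benjamini-Hochberg over all tested sets. The procedure was tested on simulated data. All adjusted p-values are limma's. The number of arrays limits the precision.

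The 10 genes, the lists and the tests were chosen with earlier results of these data known. Named are the 10 genes, up to 4 called genes per list and comparison with the largest change, the 4 eIF2 kinases, Mycn, and marker genes. The 3 most similar genes are named for Atf4, Vldlr, Ddit3 and Asns, and left out for the other called members.

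Replicate numbers were checked for pairing. In WT-Ctrl and Het-Ctrl, deviations of same-numbered arrays correlated across genes at 0.24, 0.27 and 0.25, so the numbers pair these 2 groups. Over all 31 same-numbered pairs r was -0.13 to 0.27. Arrays of different groups correlated at a median of 0.08 within a run of sample codes (28 pairs) and -0.07 across runs (53 pairs). In a group of 2 arrays the deviations from the group mean are equal and opposite. The pairs are thus not separate evidence, and the 2 medians are not independent. Same-numbered Ctrl and NMyc arrays lie in different runs, so the numbers do not pair the vectors.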

Additional observations from a re-analysis of the deposited data

Results flagged for a closer look

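The N-Myc effect on Vldlr differed between genotypes in a test of the difference itself. The effect in Hom minus that in WT was 1.48 on the log2 scale, and its call was lost in 5 of 25 alternative fits. The effect in Hom minus that in Het was 1.23, and its call was lost in 18 of 25. Both use the Hom-Ctrl and Hom-NMyc arrays, and so are not independent of each other.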

How the results depend on the processing

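Of 117 pairs of a gene and a comparison, 28 were called, and 15 of these under every alternative run: Ddit3 with N-Myc (averaged, WT, Het, Hom), Vldlr with N-Myc (averaged, WT, Het) and in Hom minus WT and Hom minus Het with Ctrl, and Trib3, Sesn2 and Ppp1r15a with N-Myc (averaged, WT). Over the 30 pairs called at least once, 747 alternative values gave 639 with the same call, 102 lost, 6 gained and 0 reversed. The number of the 9 genes called, with the range over arrays left out in turn, was 6 (5 to 7) averaged, 5 (5 to 5) in WT, 4 (2 to 4) in Het, 5 (2 to 5) in Hom, 4 (1 to 5) for Hom minus WT with Ctrl, 2 (1 to 2) for Hom minus Het with Ctrl, 1 (0 to 1) for each of the 2 called effect differences, and 0 (0 to 0) elsewhere. For N-Myc in Hom it was 3 with median centring or only AFFX sets left out, and 2 with code runs 2 and 3 alone. For Hom minus WT with Ctrl it was 2 with runs 2 and 3 alone or only the groups compared. For Hom minus Het with Ctrl it was 1 with only AFFX sets left out, with runs 2 and 3 alone or with only the groups compared. The Hom minus WT effect difference called 0 with only the groups compared. The Hom minus Het effect difference called 0 with that setting, only AFFX sets left out, the replicate block, the code run block or runs 2 and 3 alone. With the replicate block the counts were 7 averaged, 5 in WT, 3 in Het, 5 in Hom, 3 and 2 for Hom minus WT and Hom minus Het with Ctrl and 1 for the Hom minus WT effect difference, and Het minus WT with Ctrl stayed at 0. For the N-Myc effects, the replicate block joins Ctrl and NMyc arrays of different runs. The cause of these changes was not tested. Where an alternative leaves 1 array in a group, that array is assumed to vary like the other groups. The averaged effect uses all groups, so a fit to only its groups is the reported one. With signal near background, nothing could be read from Fgf21.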
